A study of Mus musculus with 8 samples.

Results

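Type IIx myonuclei are the nuclei of the fast muscle fibres that make the myosin heavy chain Myh1. They were described here in single-nucleus RNA sequencing of mouse gastrocnemius, the large calf muscle. A nucleus was counted as Myh1-dominant when its unique molecular identifiers (UMIs, each 1 captured RNA molecule) for Myh1, Myh2, Myh4 and Myh7 together numbered at least 5, made up at least 0.3% of its UMIs, and came to at least 70% from Myh1. This rule found 2107 members among 64803 retained nuclei (3.25%). Of these, 1976 came from the 4 libraries taken as made with 10x Genomics chemistry and 131 from the 4 libraries of a second set. The labels do not name the library system of a sample, so the sets were assigned from the format of the deposited matrices. All mice were wild-type C57BL/6. The Young group was 3 months old and the Old group 20 months old, while the Sedentary and Running groups were 11 months old at the start and the Running group then had 2 months of treadmill training. Each of the 4 groups had 2 libraries, replicate 1 from the 10x set and replicate 2 from the second set, and the sex of the animals was not given for these samples. Nothing in the labels states whether a library pooled animals, so the spread behind the p-values below may be technical. In gene tests between classes of nuclei, which compare classes within each library, it is how far the class differences varied from library to library. In gene tests between groups, it is what remains after group and library set are fitted, with 1 residual degree of freedom.

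The second library set stood apart before any comparison was made. Its members had a median of 821 to 1662 UMIs per library, against 2470 to 4108 in the 10x libraries. Among nuclei with endothelial markers, which should make no sarcomeric myosin, 68.8% to 100% met the first requirements of the rule (5 myosin UMIs and 0.3% of UMIs) in the second set against 7.18% to 12.9% in the 10x set. The whole rule was met by 3 to 5 such nuclei per 10x library and by 0 in the second set. More nuclei with at least 5 UMIs of markers of fibro-adipogenic progenitors (connective tissue cells) met the whole rule. In the 10x set they were 57 of 247 Old, 7 of 216 Young, 45 of 810 Running and 10 of 703 Sedentary members. The first requirements were met by 5.53% to 21.99% of 10x nuclei with these markers. With macrophage markers these values were 0 to 3 nuclei and 8.13% to 20.97%. Whether such nuclei were other cells or fibre nuclei with stray RNA was not tested. Only libraries with at least 20 nuclei of a class entered the gene tests, which left all 10x libraries with Old replicate 2 and Young replicate 2. Running replicate 2, with 2 members, and Sedentary replicate 2, with 18, were left out of them.

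A muscle fibre is a single cell with many nuclei, and its speed depends largely on which myosin heavy chain it makes. In mouse limb muscle, slow type I fibres make Myh7, and the fast fibres run from oxidative, fatigue-resistant type IIa (Myh2) through type IIx (Myh1) to type IIb (Myh4), the fastest and most glycolytic. The genes of the fast chains lie in a cluster on chromosome 11, where fibres switch from one to its neighbour. Fast oxidative fibres burn fatty acids and pyruvate in mitochondria, whereas type IIb fibres break down stored glycogen to lactate.

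The 3 genes whose RNA separates the fast classes lie side by side on the plus strand of chromosome 11 (mm10, GENCODE vM21). Myh2 spans 67171027 to 67197517, Myh1 67200052 to 67224575 and Myh4 67238029 to 67260446, whereas Myh7 lies on the minus strand of chromosome 14 from 54970684 to 54994626. The 250 bases before the RefSeq start of each fast gene (GRCm38.p6, plus strand, 5′ to 3′) are given because these sequences lie upstream of the RNAs by which the nuclei were chosen. They are chr11:67199852-67200101 for Myh1, chr11:67237562-67237811 for Myh4 and chr11:67170777-67171026 for Myh2. Capitals mark the motifs searched for, which were the TATA box TATAAA on the plus strand, and, on both strands, a MEF2 site, the E-box CAGCTG, the MEF3 site TCAGGTT and the estrogen-related receptor element TCAAGGTCA.
Myh1: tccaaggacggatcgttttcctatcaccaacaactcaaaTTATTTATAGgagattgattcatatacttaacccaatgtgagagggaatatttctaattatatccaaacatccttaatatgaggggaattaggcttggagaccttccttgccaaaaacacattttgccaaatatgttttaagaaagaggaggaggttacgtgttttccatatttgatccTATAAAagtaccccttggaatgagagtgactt
Myh4: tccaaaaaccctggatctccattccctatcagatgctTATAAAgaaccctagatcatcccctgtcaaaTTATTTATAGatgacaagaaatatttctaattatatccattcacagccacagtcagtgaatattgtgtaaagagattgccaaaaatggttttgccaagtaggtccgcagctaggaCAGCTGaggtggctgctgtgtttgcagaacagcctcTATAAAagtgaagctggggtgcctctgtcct
Myh2: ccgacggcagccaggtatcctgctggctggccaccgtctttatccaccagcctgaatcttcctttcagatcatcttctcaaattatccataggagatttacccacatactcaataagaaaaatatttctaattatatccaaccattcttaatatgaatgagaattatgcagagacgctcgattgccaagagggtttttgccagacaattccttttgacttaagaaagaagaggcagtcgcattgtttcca
The Myh1 window held a TATA box 27 to 32 bases before the start and the MEF2 match TTATTTATAG at 202 to 211 bases. The Myh4 window held the same MEF2 match at 173 to 182 bases, TATA boxes at 26 to 31 and 208 to 213 bases, and an E-box at 62 to 67 bases, while none of the 5 motifs was found in the Myh2 window. Of 27025 promoter windows of this length, 8.94% held the TATA box, 3.42% the MEF2 site, 14.7% the E-box, 4.07% the MEF3 site and 0.422% the receptor element. A match describes letters only.

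Myh1 outweighed the other chains by far in the 10x members and by less in the second set. These values chose the members and are given without a test. The median Myh1 share of myosin UMIs per nucleus in the 10x set reached 95.2% for Old, 96.3% for Young, 93.3% for Running and 93.5% for Sedentary, and it was 73.2% to 80% in the 4 second-set libraries. Of the 2107 members, 544 had Myh1 as their sole myosin, 1259 had more Myh4 than Myh2 and 193 more Myh2 than Myh4. Myh4 was thus the usual minor chain. It was detected in 48.6% to 78.9% of members per 10x library and Myh2 in 8.8% to 23.5%. In 10x nuclei with endothelial markers, Myh4 also made up most of the myosin UMIs, 61.6% to 84.1% per library. How much of the minor chain in the members was stray RNA was not tested. Myh1 in the summed members stood at 4854 to 8138 CPM (counts scaled to a common library depth, here relative to all UMIs) in the 10x libraries, against 57.2 to 149 CPM in the Myh4-dominant sums and 520 to 1900 CPM in the Myh2-dominant sums. At the edge of the rule, 245 members had a Myh1 share of 70% to 80% and 412 other nuclei one of 60% to 70%. A further 51 nuclei had the purity with 4 myosin UMIs, and 45 members had exactly 5.

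**Figure D1:**
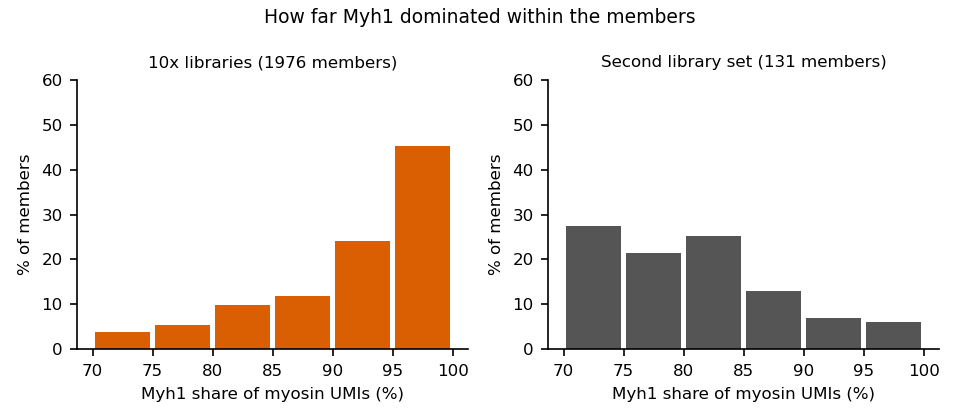
Histogram of the Myh1 share of myosin UMIs in each member (x axis, %) against the percentage of members (y axis), for the 10x libraries (left, 1976 members) and the second set (right, 131 members). The 10x members pile up at the pure end, and the second-set members are spread from the 70% limit upward, with a median of 80% in Old and in Young.

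Under the main rule, the share of Myh1-dominant nuclei was lower in the second-set library of every group, by most in Running. At a purity of 60% it was higher there for Old (3.06% against 2.37%) and Young (2.26% against 2.14%). With nuclei thinned to 5 myosin UMIs, Young was higher there (2.33% against 1.95%) and Old lower (1.99% against 2.18%). With nuclei thinned to 1000 UMIs, Old was higher there (2.31% against 1.80%) and Young lower (1.35% against 1.72%). Members were 2.11% of retained nuclei in the Old 10x library (95% Wilson interval 1.87% to 2.39%) and 1.83% in the Young one (1.605% to 2.09%), against 6.24% (5.83% to 6.66%) for Running and 6.64% (6.18% to 7.13%) for Sedentary. The second-set libraries had 1.4% for Old (1.11% to 1.78%) and 0.976% for Young (0.728% to 1.31%), against 0.0473% (0.013% to 0.172%) for Running and 0.425% (0.269% to 0.671%) for Sedentary. Both 11-month groups were thus above the Old and Young libraries in the 10x set and below them in the second set. The intervals cover counting error alone. Old exceeded Young by 0.37 on the log2 scale, and Running was below Sedentary by a log2 ratio of -1.63 (exact two-sided permutation p = 0.667 for each, where 0.3333 is the smallest p that 2 libraries against 2 allow). This test ignores the library set. Old was above Young within each set, by 0.21 with 10x chemistry and 0.53 in the second set. Within the 10x set the log2 ratio of Running to Sedentary was -0.091, and within the second set, from 2 and 18 nuclei, it was -3.17. Over only nuclei that met the first requirements of the rule, Old to Young was 0.77 with 10x chemistry and 1.12 in the second set. Running to Sedentary was then -0.58 with 10x chemistry (9.75% and 14.5%) and -3.24 in the second set. Over all retained nuclei, the 10x ratio of Running to Sedentary was 0.18 without nuclei with other cell markers. It was 0.10 with nuclei thinned to 1000 UMIs. Without Running replicate 2 the Running to Sedentary ratio of -1.63 became 1.89, and without Sedentary replicate 1 it became 0.35. The Old to Young ratio became -0.088 without Young replicate 2, and -0.032 when every nucleus was thinned to 5 myosin UMIs. For scale, Myh4-dominant nuclei made up 23.5% to 89.8% of retained nuclei per library and Myh2-dominant nuclei 0.0237% to 7.02%. Fewer type IIx nuclei and less Myh1 RNA per nucleus cannot be told apart by this rule.

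**Figure D2:**
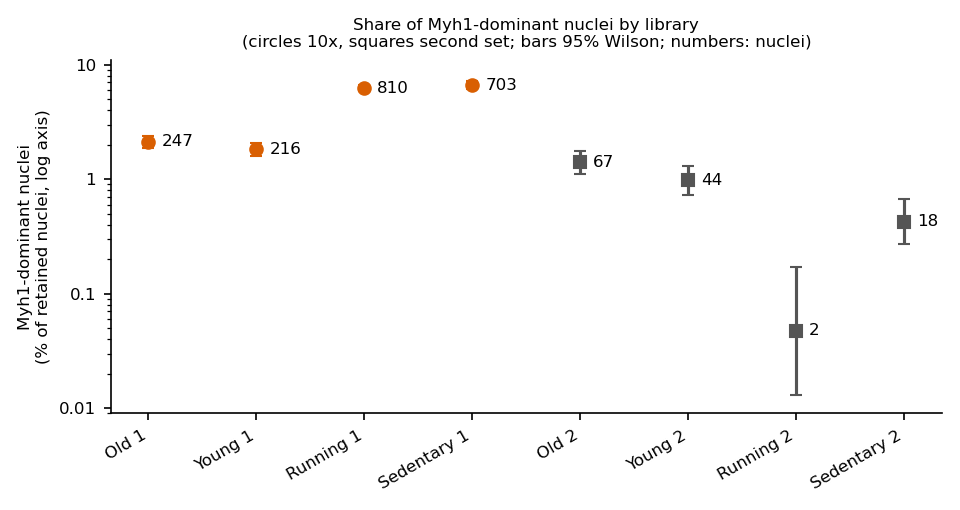
Share of Myh1-dominant nuclei among retained nuclei (y axis, %, log scale) in each of the 8 libraries (x axis), with 95% Wilson intervals and the number of members beside each point. The 10x libraries (circles) sit between 1.83% and 6.64%, and the second-set libraries (squares) between 0.0473% and 1.4%.

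The markers given for these nuclei beside Myh1 were higher in them than in Myh4-dominant nuclei, and lay on the lower side against Myh2-dominant nuclei. They are Actn2, a crosslinker of actin filaments at the Z-disc, and Esrrg, an orphan nuclear receptor that drives oxidative genes. From here on CPM is relative to the UMIs that entered the tests, which leave out the 4 myosins and the mitochondrial and ribosomal protein genes. Actn2 in the members was at 1586, 1317, 604 and 725 CPM in the Old, Young, Running and Sedentary 10x libraries and at 1013 and 1322 CPM in the Old and Young second-set libraries. The Myh4-dominant sums of the same libraries held 109, 72.6, 60.1, 120, 427 and 418 CPM, below the members in each library. The Myh2-dominant sums held 1154 to 3491 CPM, above the members in each. The log2 difference from Myh4-dominant nuclei was 2.60 ± 0.33 (SE), and that from Myh2-dominant nuclei was -1.004 ± 0.30. The first passed the test (edgeR quasi-likelihood test on sums per library with the library as block, Benjamini-Hochberg adjusted p = 3.46e-06) and the second did not (adjusted p = 0.0738), although it did with the 10x libraries alone (adjusted p = 0.00292), with RLE scaling (0.0316), with no filter on low counts (1.95e-05), without Old replicate 2 (0.0151) and without nuclei with other cell markers (0.0355). Esrrg was at 1757 to 2067 CPM in the 10x members against 132 to 361 CPM in Myh4-dominant nuclei, while in Old replicate 2 the 2 classes held 513 and 527 CPM. Its log2 differences were 2.15 ± 0.37 (adjusted p = 0.000162) from Myh4-dominant and -0.38 ± 0.33 (adjusted p = 0.775) from Myh2-dominant nuclei. Both markers were picked with earlier results of these data known.

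Against Myh4-dominant (type IIb) nuclei, the members held more RNA of the mitochondrial machinery. Of 31 genes of the respiratory chain and ATP synthase, 26 were higher and none lower, with a median log2 difference of 0.70. Among all 11211 genes tested, 15.3% were called (7.16% higher and 8.16% lower) at an adjusted p under 0.05, and the median difference was -0.066. Sdhb, a subunit of succinate dehydrogenase (complex II), had the largest difference of the called genes, at 1.12 ± 0.19 (adjusted p = 0.00015). It was at 203, 127, 136 and 110 CPM in the Old, Young, Running and Sedentary 10x members against 49.3, 64.4, 58.8 and 36.5 CPM in Myh4-dominant nuclei. In the second set it was higher in Young but not in Old, where the members held 59.6 CPM against 114. Cox5a and Cox4i1 of cytochrome c oxidase differed by 1.07 and 0.95, the core ATP synthase subunit Atp5a1 by 0.86, and Ndufv1 of complex I by 0.93. All 31 genes lay on the higher side. With the 10x libraries alone 27 were called, and without Old replicate 2 there were 25.

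The fatty acid genes showed a wider gap in the same comparison. Of 29 genes for the uptake, activation and oxidation of fatty acids, 24 were higher and 1 lower, with a median of 1.002. Cd36, the main fatty acid transporter of the fibre membrane, was at 890, 830, 751, 673, 274 and 871 CPM in the members (Old, Young, Running and Sedentary of the 10x set, then Old and Young of the second set) and at 70.5 to 243 CPM in Myh4-dominant nuclei. The classes did not overlap, and the difference was 2.35 ± 0.31 (adjusted p = 8e-06). Lpl, which frees fatty acids from circulating lipoproteins, and Fabp3, which carries them through the cytoplasm, both differed by 1.88. Acaa2, the last enzyme of the beta-oxidation cycle, differed by 1.59 and the carnitine transferase Cpt1b by 0.93. The exception was Acsl6, an acyl-CoA synthetase, at -0.47 ± 0.15 (adjusted p = 0.035). With the 10x libraries alone 24 were higher, and without Old replicate 2 there were 23.

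Glycogen genes ran the other way. Of 13 genes of glycogen storage and breakdown, 10 were lower in the members than in Myh4-dominant nuclei and 2 higher, with a median of -0.66. Pygm, the muscle glycogen phosphorylase that starts glycogen breakdown, was at 567, 979, 1088 and 768 CPM in the 10x members (Old, Young, Running, Sedentary) against 1461, 1898, 1899 and 1446 CPM. It was lower in each second-set library as well, and the difference was -1.02 ± 0.13 (adjusted p = 4e-06). Phka1 and Phkb, subunits of the phosphorylase kinase that activates Pygm, differed by -1.42 and -1.01. The 2 genes that were higher were glycogen synthase Gys1 (0.77 ± 0.12) and the branching enzyme Gbe1 (0.83 ± 0.21). All other genes of the list lay on the lower side. The count of 10 was the same with the 10x libraries alone and without Old replicate 2.

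Genes of glycolysis and its exits split. Of 24, 7 were lower and 4 higher, with a median of -0.24. The largest drop was in Pfkfb3, which makes the main activator of phosphofructokinase, at -2.71 ± 0.25 (adjusted p = 3.78e-08), with 70.8 to 290 CPM in the 10x members against 651 to 1238 CPM. Lactate dehydrogenase divided by subunit. Ldha, whose product favours lactate formation, was lower by a log2 difference of -0.73 ± 0.15 (adjusted p = 0.0014), although in Old replicate 2 the members were above. Ldhb, whose product favours lactate use, was higher at 3.06 ± 0.50 (adjusted p = 0.000101), with 68.1, 49.3, 76.4 and 18.8 CPM in the Old, Young, Running and Sedentary 10x members against 5.1, 0.968, 2.42 and 3.28 CPM. Pdk4, which blocks the entry of pyruvate into mitochondria, and Pdha1, a subunit of the enzyme it blocks, were both higher, at 1.87 and 0.62. Pfkfb1 was the fourth higher gene.

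**Figure D3:**
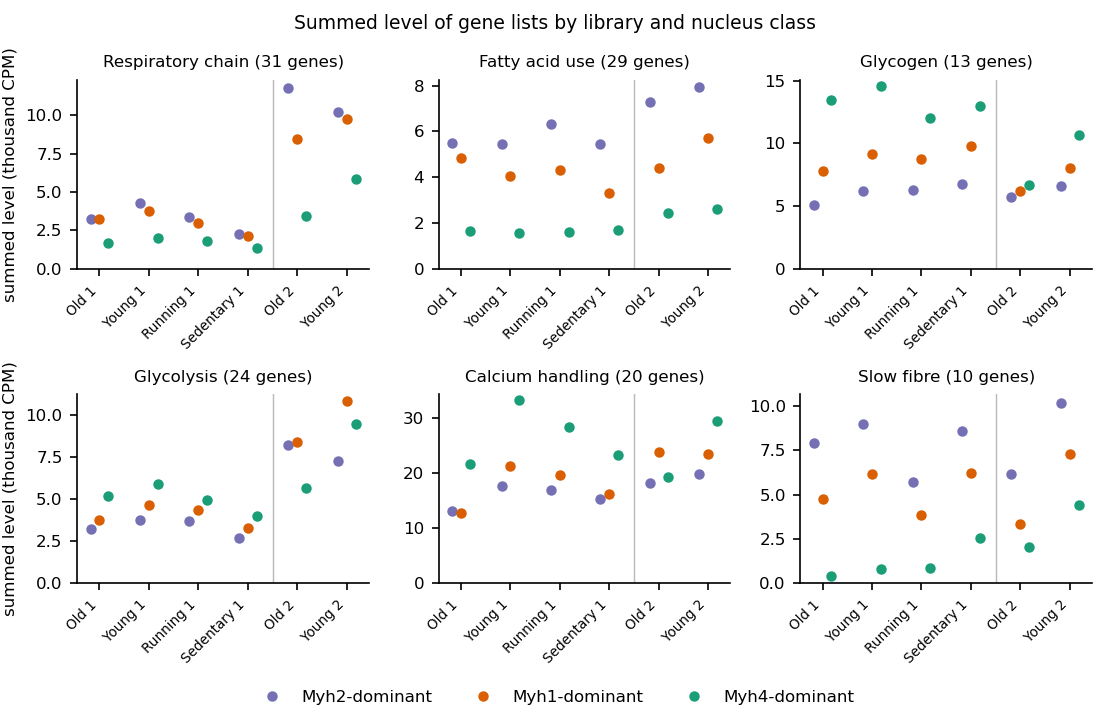
Summed level of 6 gene lists (y axis, CPM divided by 1000) in Myh2-dominant, Myh1-dominant and Myh4-dominant nuclei of each library with at least 20 nuclei of every class (x axis, 10x libraries left of the grey line). For fatty acid use, slow fibre and glycogen genes the Myh1-dominant point lies between the other 2 in all 6 libraries. For the respiratory chain it does so in all but Old 1, where it lies at 3272 CPM against 3267 CPM in Myh2-dominant nuclei.

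Fast contractile and calcium genes were more often lower than higher. Of 17 fast contractile genes, 7 were lower in the members than in Myh4-dominant nuclei and 1 higher. Actn3, the fast-fibre partner of Actn2 at the Z-disc, was at 55.7, 418, 334, 115, 644 and 584 CPM in the members (libraries in the order given above) and at 564, 1184, 1031, 428, 845 and 1480 CPM in Myh4-dominant nuclei. It was lower in each library, by -1.85 ± 0.24 on the log2 scale (adjusted p = 5.2e-06). Mybpc2, the fast myosin-binding protein C, differed by -1.64 and Mylk2, the skeletal myosin light chain kinase, by -1.38, whereas the beta-tropomyosin gene Tpm2 differed by 1.01. Of 19 genes of calcium release and uptake, 12 were lower, with a median of -0.54. Pvalb, the calcium buffer of the fastest fibres, differed by -1.35, Casq1, the fast calsequestrin of the sarcoplasmic reticulum, by -1.01 and the release channel Ryr1 by -0.55. The 2 higher genes were Casq2, the slow and cardiac calsequestrin (2.43 ± 0.44), and Pln, an inhibitor of the calcium pump (0.85 ± 0.23). In the list of 10 slow-fibre genes, Mybpc1, the slow myosin-binding protein C (1.69 ± 0.32), and Lmod2, an actin-filament nucleator (2.60 ± 0.36), were higher, and none was lower. As a whole this list did not lean, with 5 of 10 on the higher side and a median of 0.00032.

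Regulators of oxidative metabolism, a list that also holds growth factors and an AMP-kinase subunit, had calls in both directions. Of 22, 9 were higher and 4 lower. The higher genes were the nuclear receptors Esrrg, Esrrb (2.46 ± 0.50), Esrra (0.93 ± 0.16) and Ppara (1.86 ± 0.21), the coactivators Ppargc1a (0.59 ± 0.15) and Ppargc1b (0.70 ± 0.15), their cofactor Perm1 (1.47 ± 0.20) and the vascular growth factors Vegfa (1.03 ± 0.16) and Vegfb (0.83 ± 0.21). Ppara, a receptor that switches on fatty acid genes, was at 162 to 397 CPM in the members and 31.2 to 155 CPM in Myh4-dominant nuclei, higher in 6 of 6 libraries. Ppargc1a was also higher in 6 of 6, but without Running replicate 1 its adjusted p was 0.061. Prkag3, the AMP-kinase subunit of glycolytic fibres, was the lowest of the list at -2.53 ± 0.18 (adjusted p = 1.2e-09), with 76.1 to 238 CPM against 418 to 882 CPM. Among 22 fibre-type transcription factors 7 were lower and 2 higher. Maf, a driver of the type IIb programme, differed by -1.15 ± 0.18, the fast-fibre repressor of slow genes Sox6 by -0.91 and the transcriptional coactivator Eya1 by -1.005, while Vgll2 differed by 0.88. Runx1, a gene raised by denervation, was at 0.62 ± 0.23, which did not pass (adjusted p = 0.0656) although it did with the 10x libraries alone (0.83, adjusted p = 0.00427).

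The named genes with the largest differences reached beyond these lists. The highest was Atp1b1, a subunit of the sodium-potassium pump (chromosome 1, 164437109 to 164458355), at 546, 518, 316, 289, 119 and 617 CPM in the members against 23 to 128 CPM in Myh4-dominant nuclei, a difference of 3.17 ± 0.34 (adjusted p = 3.44e-07). Fhl1, a LIM-domain protein of the sarcomere (2.86), Ankrd2, a stretch-responsive titin partner (2.75), the phosphatase gene Ptpn3 (2.79), the semaphorin co-receptor gene Nrp1 (2.65) and the long non-coding RNA Gm20757 (2.85) were also among the highest 10, as were Ldhb, Actn2 and Lmod2. The lowest was Cadm1, an adhesion molecule of the immunoglobulin family (chromosome 9, 47530173 to 47857637), at 29.2 to 95.4 CPM in the members against 129 to 759 CPM, a difference of -3.37 ± 0.27 (adjusted p = 6.85e-09). It was followed by the potassium channel subunit Kcnab1 (-3.32), Pld5 (-3.22), Pfkfb3, Mical2, an actin oxidase (-2.70), Il1rapl2 (-2.69), 9530026P05Rik (-2.64), Gm41815 (-2.59), the secreted peptide gene Ostn (-2.58) and Sorbs2, a Z-disc adaptor (-2.58). 9530026P05Rik is annotated as an antisense RNA.

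Other lists are to be read against the 15.3% of all genes that were called. Of 14 enzymes that write, erase or feed histone acylation, the sirtuin Sirt3 (0.93 ± 0.19) and Acss2 (1.18 ± 0.21), which makes acetyl-CoA from acetate, were higher, and the deacetylase Hdac3 (-0.54 ± 0.17) was lower. Of 8 DNA repair genes that the study named from these samples, 5 were lower, namely Eya1, Pds5b (-0.91), Park7 (-0.72), Exd2 (-0.62) and Rev3l (-0.54). Since that list was chosen on these samples, its direction is not independent evidence. The share called in the next 2 lists was near that of all genes. Of 18 atrophy genes, Mstn, the growth inhibitor myostatin (-2.11), and the ubiquitin ligases Fbxo32 (-0.95) and Trim63 (-0.77) were lower. Of 11 genes that respond to denervation, Dach2 was higher (2.11) and Cdh4 lower (-1.75). Of 19 clock genes, Npas2 was higher (1.61), while Nfil3 (-1.32), Rora (-1.20), Hlf (-1.01) and Bhlhe41 (-0.88) were lower. Of 9 immediate early genes, Btg2 was higher (1.12), and Nr4a3 (-1.22) and Nr4a1 (-0.99) were lower. Of 26 Z-disc genes, 8 were higher and 3 lower.

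The class comparison rested on 6 libraries and 1718 calls. Leaving out Running replicate 1 or Sedentary replicate 1 brought the calls to 1055 and 1075. The 10x and second-set fits share no library and can be set side by side. Of 1393 genes called higher in the 10x fit, 614 were tested in the second set and 69.9% of these lay on the higher side there, against 43.6% of all 3181 genes tested in that set. Of 1042 called lower, 505 were tested and 78.4% lay on the lower side, against 56.4% of all.

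Myh2-dominant (type IIa) nuclei differed from the members in fewer genes, and few oxidative genes were called. Of 11211 genes, 314 were called (2.8%), 152 higher in the members (1.36%) and 162 lower (1.45%), with a median difference of 0.012. Of the 31 respiratory genes, 6 lay on the higher side (median -0.11), none was called higher, and 2 subunits of cytochrome c oxidase were lower, Cox7a1 (-1.21 ± 0.29) and Cox6a2 (-0.64 ± 0.17). Of the 29 fatty acid genes, 2 lay on the higher side (median -0.37, 14 at an unadjusted p under 0.05). Lpl (-1.05 ± 0.27), Fabp3 (-0.94 ± 0.18) and Cpt1b (-0.59 ± 0.14) were lower, and the mitochondrial uncoupling protein gene Ucp3 was higher (0.76 ± 0.18). Glycogen genes again stood out, since 7 of 13 were higher and none lower, with a median of 0.53. Pygm was higher in each library, with a difference of 0.84 ± 0.14 (adjusted p = 0.00083), and Phkg1, the catalytic subunit of phosphorylase kinase, by 0.96 ± 0.14. Of 24 glycolysis genes 7 were higher and Ldhb was lower. With the 10x libraries alone the members had 7 higher glycogen and 9 higher glycolysis genes, and 8 fatty acid genes were lower in place of 3.

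The named genes with the largest differences from type IIa were of mixed kinds, with Fat3 the highest and the non-coding Sox2ot the lowest. Mybpc2 was at 111, 383, 400, 305, 763 and 672 CPM in the members (same order of libraries) against 28.8, 85.7, 48.4, 82.3, 201 and 201 CPM in Myh2-dominant nuclei, a difference of 2.21 ± 0.24 (adjusted p = 6.59e-06). Mylk4, a kinase gene marking fast glycolytic fibres, differed by 1.86, Slc16a3, the exporter of lactate, by 1.77, and Tbc1d1, a regulator of glucose transporter traffic, by 1.73. Fat3 (2.498), D1Ertd622e (1.78), Gm13490 (1.70), Cd55 (1.67) and Tspan8 (1.64) were also among the highest 10. The remaining one, Myhas (2.39), is an antisense RNA on chromosome 11 (67211256 to 67237573) that overlaps Myh1 itself. Whether its counts are tied to the rule was not tested. It was highest in the members in 2 of 6 libraries and ran type IIb over IIx over IIa in 4 of 6. On the lower side, Myoz2, the slow-fibre calsarcin of the Z-disc, was at 29.2, 7.04, 2.69, 12.4, 83.5 and 77.1 CPM against 356, 337, 62.6, 301, 426 and 384 CPM, a difference of -3.99 ± 0.62 (adjusted p = 0.000495). Sox2ot (-4.18), Myom3 of the M-band (-2.91), Ankrd2 (-2.78), the slow light chain gene Myl3 (-2.51), 9430073C21Rik (-2.43), Gramd1b (-1.74), the mitochondrial isocitrate dehydrogenase gene Idh2 (-1.72), Arpp21 (-1.72) and Ldhb (-1.69) made up the rest. 9430073C21Rik is an antisense RNA at 67195680 to 67199234 of chromosome 11, where it overlaps the end of Myh2. Among the genes fixed for description, Maf was higher (1.32 ± 0.20), Ldha higher (0.82 ± 0.18) and Ppara lower (-0.94 ± 0.21), while Eya1 (0.32 ± 0.19), Ppargc1a (-0.18 ± 0.16) and Runx1 (-0.013 ± 0.27) did not pass. In this comparison the calls fell to 178 without Old replicate 1, 139 without Running replicate 1 and 81 without Sedentary replicate 1. Without the last of these, Ldhb (adjusted p = 0.195), Ldha (0.146), Ppara (0.12) and Arpp21 (0.0733) lost their calls.

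Set side by side, many of the named genes placed the members between both neighbours. The 2 comparisons share the member sums, so their values are given as a description. The order type IIa over IIx over IIb held in 6 of 6 libraries for Actn2, Ldhb, Atp1b1, Idh2, Cd36, Lpl, Fabp3 and Ppara. The reverse order held in 6 of 6 for Mylk4, Mybpc2, Actn3, Cadm1, Pygm, Prkag3 and Sox6. Acss2 followed the first order in 6 of 6, with differences of 1.18 from type IIb and -1.05 from type IIa. Pdk4 did not follow either order. It was highest in the members in 6 of 6 libraries, at 398, 103, 672, 245, 215 and 573 CPM, against 200, 11.4, 538, 153, 125 and 292 CPM in Myh2-dominant and 61.2, 30.2, 156, 65, 69.8 and 164 CPM in Myh4-dominant nuclei. It passed the test against both, at 1.87 ± 0.19 and 0.75 ± 0.20 (adjusted p = 2.01e-07 and 0.0368). Wwp1 was also highest in the members in 6 of 6 libraries, but was not called higher in either comparison. Tbc1d1 was highest in the members in 5 of 6 libraries, as were Aars, Jun, Kat7, Ndufs7 and Ucp3. Kcnab1, among others, was lowest in them in 5 of 6.

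**Figure D4:**
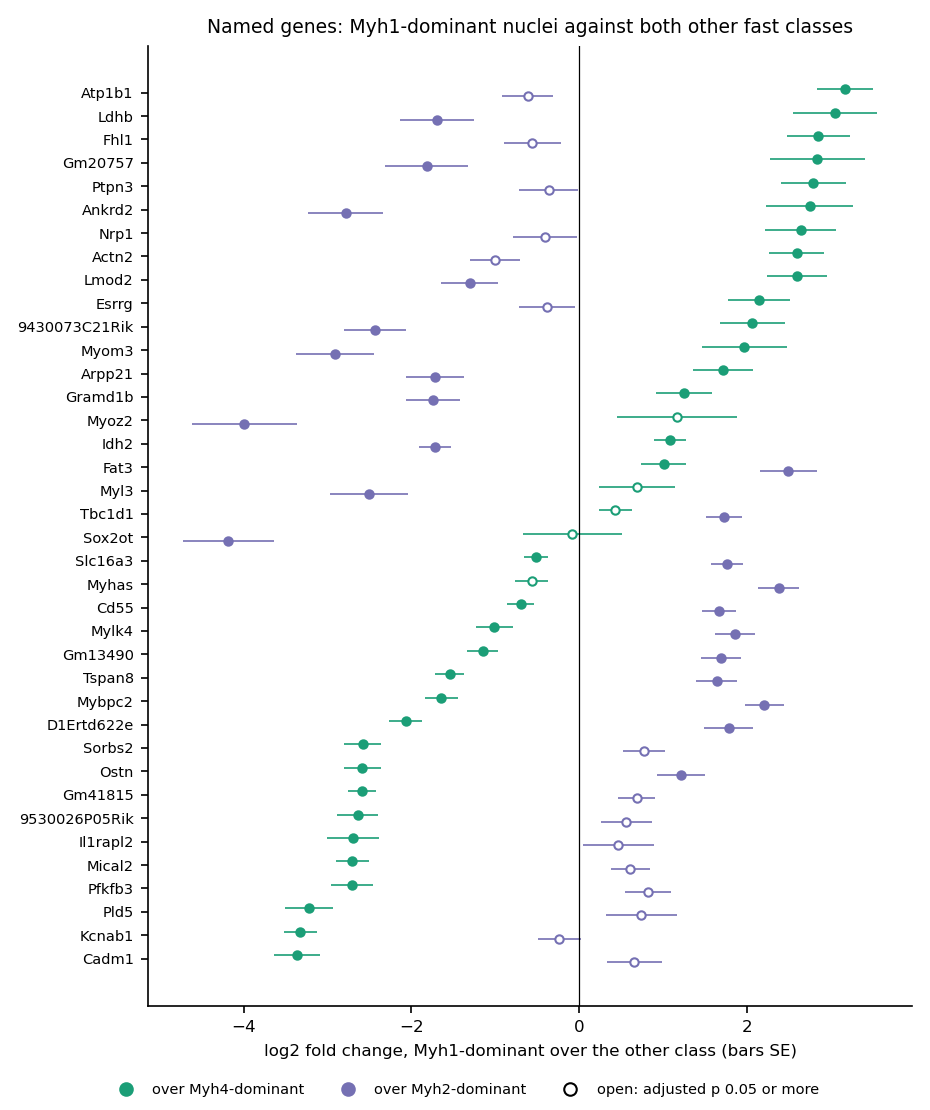
Log2 fold change (x axis, bars are SE) of each gene named by size (y axis) in Myh1-dominant nuclei over Myh4-dominant (green) and over Myh2-dominant nuclei (purple), with open points where the adjusted p is 0.05 or more. Ankrd2 stands at 2.75 over type IIb and -2.78 against type IIa, whereas Kcnab1 is at -3.32 against type IIb with an open point near 0 for type IIa. Both colours rest on the same member sums.

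Few genes were called by the minor myosin of a member, and the part of stray RNA in this split was not tested. Members with more Myh2 than Myh4 were compared with members with more Myh4 than Myh2 in the 3 libraries that held at least 20 of each, Old, Running and Sedentary of the 10x set. Of 5769 genes, 1 was called (0.0173%), the titin partner Ankrd2, at 1.76 ± 0.22 on the Myh2 side (adjusted p = 0.00615, higher in 3 of 3 libraries). An unadjusted p under 0.05 was reached by 259 genes. Ankrd2 is also higher in Myh2-dominant than in Myh1-dominant nuclei, as given above, and its level in all members was highest in Old replicate 1, at 321 CPM against 9.86 to 99.2 CPM in the other libraries. Without Old replicate 1 its difference was 1.70 (adjusted p = 0.989) and no gene was called. The glycolytic activator Pfkfb3 was at -1.25 ± 0.27 and Actn2 at 0.34 ± 0.10, and neither passed (adjusted p = 0.449 and 0.987).

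No gene was called between Old and Young members. The fit held 6 libraries with the library set as a term and 1 residual degree of freedom. By edgeR 0 of 11669 genes were called (0%), 215 had an unadjusted p under 0.05, and DESeq2 also called 0. In counts simulated for these libraries, the fit recovered 2% of genes changed by 1 on the log2 scale and 19% of those changed by 2. For the age interaction given below it recovered 0% and 4%. The lack of calls therefore does not show that age changed little. The 5 smallest p values in genes of sufficient level belonged to the non-coding RNAs Gm28653 (2.08 ± 0.54) and 2310067P03Rik (-2.19 ± 0.62), to Ky, a muscle protease-like gene (-2.09 ± 0.55), to Nrp1 (-2.01 ± 0.55) and to the magnesium transporter gene Slc41a3 (-2.49 ± 0.69), with adjusted p from 0.494 to 0.504. Ky was at 305 CPM in Old and 789 CPM in Young members with 10x chemistry, and at 35.8 and 419 CPM in the other pair. Old was thus the lower one in both sets, but the difference did not pass the test. The difference of the age effect between Myh1-dominant and Myh4-dominant nuclei was called for 1 of 11060 genes (0.00904%), Gm10800, whose counts are uncertain because near-identical copies share reads. Respiratory genes had a median of -0.36 with 26 of 31 on the lower side, glycolysis genes a median of -0.52 with 21 of 24 and fast contractile genes -0.69 with 16 of 17, against 0.0091 for all genes, and none passed. The library sets disagreed for some of these genes, since the log2 ratio of Old to Young was -2.89 with 10x chemistry and 0.14 in the second set for Actn3, and -1.77 and 0.18 for Mybpc2. Ldha was at -0.30 ± 0.50. Genes of the neuromuscular junction had a median of 1.60, with 7 of 7 tested on the higher side and none called. Their counts were low, since 2.43% of Old and 0.463% of Young 10x members held at least 3 UMIs of junction markers. In the other pair the shares were 2.985% and 0%, and the log2 ratio was 0 for Chrne and Colq. The study's 8 DNA repair and 8 proteostasis genes, which were chosen on these samples and are not independent evidence, had medians of -0.29 and -0.56.

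Markers of other cell types were counted in the same members, and none passed the test between ages. Nuclei with at least 3 UMIs of 8 markers of fibro-adipogenic progenitors, the connective tissue cells of muscle, made up 62.4% of the Old and 7.87% of the Young members with 10x chemistry, and 72.4% and 28.3% of all nuclei in these libraries. The summed level of these markers in the members was 1162 (Old) and 582 CPM (Young) with 10x chemistry, then 369 and 158 CPM for the other pair, led by Gsn, with Dcn at 295 and 61 UMIs in the 10x members. Of the 8 markers, 5 lay on the higher side (median 0.64), while the collagen genes Col1a1, Col1a2 and Col3a1 lay on the lower side (-1.88, -0.75 and -1.16). The adipocyte list had 7 of 7 tested on the higher side with a median of 2.95, from few UMIs, since Plin1 and Cidec were at 0 in both Young libraries and at 5 to 11 UMIs in the Old ones. Endothelial markers had 6 of 8 on the higher side (median 0.59), pericyte and smooth muscle markers 4 of 6 (1.57), macrophage markers 3 of 6 (-0.27), myotendinous junction markers 2 of 6 (-1.24), lymphatic endothelial markers 0 of 5 (-2.19) and tenocyte markers 0 of 2 (-4.16). From the pericyte list on, each summed level (relative to all UMIs) was lower in Old with 10x chemistry and higher in Old in the other pair. Old and Young were at 179 and 454 CPM, then 716 and 315 CPM, for myotendinous junction markers. For lymphatic endothelial markers they were at 6.99 and 139 CPM, then 123 and 42 CPM. For tenocyte markers they were at 14 and 44.4 CPM, then 78.3 and 21 CPM. The part of other cell markers in the age values was not tested. When nuclei with such markers were left out of all classes, 1 gene was called, Ky at -2.26 (adjusted p = 0.0435).

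Running and Sedentary members could be compared in 1 library each, so the 4 calls below have no replicate of their own and take their error from the other libraries of the fit. Of 11669 genes, 4 were called (0.0343%), 2 in each direction (0.0171%), and 163 had an unadjusted p under 0.05. Ankrd23, a stretch-responsive titin partner, was at 785 CPM in Running and 55.4 CPM in Sedentary (3.75 ± 0.75, adjusted p = 0.00293). Prune2 was at 337 and 30.2 CPM (3.4 ± 0.76, adjusted p = 0.0227). Ostn, the secreted peptide osteocrin, was at 3.88 and 128 CPM (-5.08 ± 0.90, adjusted p = 0.000194), and the non-coding RNA Gm13490 at 70.4 and 633 CPM (-3.24 ± 0.72, adjusted p = 0.0227). In Myh4-dominant nuclei of the same 2 libraries Ankrd23 was at 699 and 83.2 CPM, Ostn at 71.5 and 536 CPM, Gm13490 at 147 and 816 CPM and Prune2 at 12.9 and 8.5 CPM. All 4 genes thus differed in the same direction in both classes by level, Prune2 from low values in Myh4-dominant nuclei. With 1 library per arm and 2 residual degrees of freedom, the test of the difference between classes cannot show whether the classes respond alike. Ankrd23 was at 787 and 683 CPM in the Old and Young second-set members and 146 and 209 CPM in the 10x ones, so the library sets differed as well. The fit without the library set term called 0 and DESeq2 called 1.

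Several lists leaned to one side in the Running library without a call. In simulated counts this comparison recovered 1% of genes changed by 1 on the log2 scale and 1% of those changed by 2. Respiratory genes had a median of 0.61 with 29 of 31 on the higher side, led by Cox8b (2.98, adjusted p = 0.146), Cox7a1 (2.56) and Cox6a2 (2.40). Glycolysis genes had a median of 0.48 with 19 of 24, and fast contractile genes one of 0.54 with 13 of 17. The slow-fibre list had a median of -1.44 with 1 of 9 tested on the higher side. Fibro-adipogenic markers were found in 14.4% of Running and 3.98% of Sedentary members, with summed levels of 517 and 258 CPM and 8 of 8 markers on the higher side, and the median depth was 3710 and 2470 UMIs per member. Their part in these values was not tested.

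**Figure D5:**
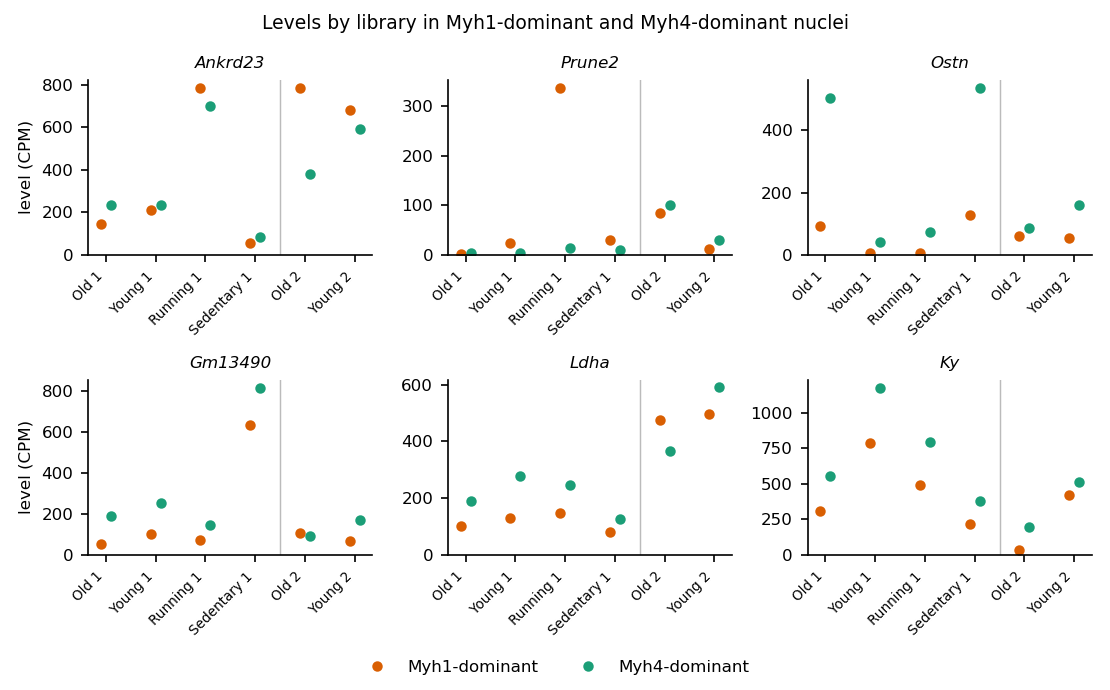
Level (y axis, CPM) of 6 genes in Myh1-dominant (orange) and Myh4-dominant nuclei (green) of each of the 6 libraries in the fits (x axis, 10x libraries left of the grey line). Prune2 stands at 337 CPM in the Running members and at or under 101 CPM elsewhere. Ostn, Ankrd23, Gm13490 and Prune2 differ in the same direction between Running and Sedentary in both classes.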

How the data were processed

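Nuclei were isolated from snap-frozen gastrocnemius muscle. The authors deposited a matrix of raw UMI counts per gene and nucleus for each of 8 libraries (counts with no normalization). Per the labels, Cell Ranger 6.1.2, Seurat 4.1.1 and mm10 were used. The methods name the DNBelab C system of MGI for a second kind of library, taken here as replicate 2 from the file format. Counting options were not given in the sources used here.

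A nucleus was retained if it had over 200 but below 6000 genes detected, with mitochondrial UMIs below 6% (64803 nuclei, with totals of 4765224 to 44389777 UMIs per library, so the second set is less precise). Pairs of 10x libraries shared 30 to 46 barcodes. Symbols present in all libraries were used, without 94 mitochondrial and ribosomal protein genes and the 4 myosins (21109 symbols). UMIs were summed per library and class, and sums of at least 20 nuclei were tested with edgeR 4.0.16 (quasi-likelihood, TMM, filterByExpr, Benjamini-Hochberg over all genes tested) in R 4.3.3. Class comparisons had the library as block, group comparisons the library set as a term. DESeq2 1.42.0, other scalings, filters, purities, doublet scores (the top 6% by scanpy 1.11.5's Scrublet left out) and left-out libraries were alternatives, and scripts were tested on simulated data. Doublets were otherwise kept. Reads of overlapping or antisense genes may be shared.

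Genes were named by a fixed rule. For class comparisons it took up to 10 called genes per direction by size, given a mean log2 CPM of 6 or more and 1 direction across the libraries. For group comparisons it took genes that were called and averaged 5 or more in log2 CPM, or, where fewer than 3 were called, the 5 smallest p values, and always Actn2, Esrrg, Ldha, Eya1, Maf, Ppargc1a, Ppara and Runx1. A few genes that the rule chose are not reported here. Agreement of both sets, which it also asked for, could not be judged for Running against Sedentary. The members, markers and lists were chosen with earlier results of these data known. Promoters come from RefSeq (GRCm38.p6) and matched 23 of 31 respiratory, 25 of 29 fatty acid and 8649 of 11211 tested genes.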

Additional observations from a re-analysis of the deposited data

Results flagged for a closer look

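The age effect was compared between Myh1-dominant and Myh4-dominant nuclei by an interaction term, and 1 of 11060 genes passed (0.00904%, with 155 at an unadjusted p under 0.05). Gm10800 had an Old to Young difference that was lower in the members by -2.925 on the log2 scale (SE 0.59, edgeR adjusted p = 0.00943). With 10x chemistry the Old and Young members were at 10.6 and 113 CPM, and in the other pair of libraries at 155 and 66.1 CPM. In Myh4-dominant nuclei the values were 83.3 and 49.1 CPM, then 240 and 33.7 CPM. The members thus moved in opposite directions in the 2 library sets. Gm10800 belongs to a family of near-identical repeats that share reads, so its counts are uncertain. Its call was lost without Old replicate 1 (-1.83, adjusted p = 0.303), Young replicate 1 (adjusted p = 1), Young replicate 2 (0.158) or Running replicate 1 (0.307). Groups of 2 libraries are too small for an outlier test.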

How the results depend on the processing

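Counts of called genes moved by over 1.5 times under some settings, and the cause was not tested. Against Myh4-dominant nuclei the 1718 calls became 4373 with no filter on low counts and 18 in the second set alone (3181 genes tested), with 1055 to 2151 when 1 library was left out. Against Myh2-dominant nuclei the 314 calls became 581 in the 10x libraries alone and 5 in the second set alone, with 81 to 468 without 1 library. Between Old and Young, 0 calls became 1 at a purity of 60% or 80% and without nuclei with other cell markers. Between Running and Sedentary, 4 calls became 1 with DESeq2, at 10 myosin UMIs and with no filter, 0 without the set term, 11 at a purity of 60% and 10 without other cell markers. For the minor myosin, 1 call became 2 with RLE scaling or without top doublet scores, 3 at 10 myosin UMIs or 80% purity, 24 with no filter, 17 at 60% purity and 5 without other cell markers (0 to 5 without 1 library). The age interaction had 2 calls with RLE scaling and 0 to 18 without 1 library, and the running interaction 0 to 2.

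The Old to Young log2 ratio of shares was -0.0318 when thinned to 5 myosin UMIs and ranged from -0.0882 to 0.820 without 1 library. That of Running to Sedentary ranged from -5.15 to 1.89. Purities of 80% and 10 myosin UMIs gave no ratio there, since Running replicate 2 then had 0 members.

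Some uncalled differences changed sign. For Old against Young, Actn2 (main value -0.13) was 0.031 with the 4 libraries alone, 0.082 and 0.081 at purities of 60% and 80% and 0.029 without other cell markers (-0.54 to 0.24 without 1 library). Ppara (0.0071) was -0.012 at 10 myosin UMIs, -0.049 with no filter, -0.12 without the set term and -0.14 without top doublet scores (-1.04 to 0.80). Runx1 (-0.12) was 0.0052 with the 4 libraries alone, 0.19 with DESeq2, 0.064 without the set term, 1.15 at 60% purity, 1.27 without other cell markers and 0.87 without top doublet scores (-0.78 to 1.70). Esrrg ranged from -1.58 to 0.21 and Ppargc1a from -0.30 to 1.34 without 1 library. For Running against Sedentary, Esrrg was 0.22 with 10 members per library, an alternative added after the data were seen, and 0.033 without other cell markers, and Eya1 was 0.026 at 10 myosin UMIs, 0.00075 with no filter, 0.29 at 60% purity and 0.028 without other cell markers. Against Myh2-dominant nuclei, Runx1 was 0.019 with DESeq2, 0.049 at 10 myosin UMIs, 0.056 with no filter and 0.19 at 60% purity (-0.22 to 0.15).

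Of the other single-gene values, 1139 kept direction and also their side of the threshold or, with no test, moved by less than the SE. Another 24, with no test, kept direction but moved by at least the SE, while 67 lost a call and 12 gained one. Leaving out an Old or Young library left no residual degrees of freedom in the group fit, so those are values with no test. No paired analysis was possible because the labels carry no replicate numbers, beyond the library set term, which compares Old with Young within each set. The second set, with 131 members, limits every comparison of groups.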
